A study of Homo sapiens with 6 samples.

Results

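The genes of the hypoxia pathway and of glycolysis were compared between LN229 cells, an established human glioblastoma cell line, and LN229 cells that lack PARP3. The set held 42 named genes, chosen by function, among the 33841 genes listed. It comprised 5 subunits of the hypoxia-inducible factors (HIF), 5 oxygen sensors and HIF regulators, 14 known HIF targets, and 18 genes of glucose uptake and glycolysis. WT cells were the parental line, labelled PARP3+/+. PARP3-/- cells came from the same line after guide RNAs against exons of PARP3 were delivered together with a Cas9 nickase, and they were grown from single sorted cells. The labels do not say which knockout clone was sequenced, so the loss of PARP3 and the other features of a clone cannot be told apart. Each genotype had 3 biological replicates, and all were grown in the same serum-containing medium. The labels name no hypoxic treatment, so the values describe these genes in routine culture.

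HIF is a dimer of an oxygen-regulated alpha subunit (HIF1A, EPAS1 or HIF3A) and a constitutive beta subunit (ARNT or ARNT2). When oxygen is plentiful, prolyl hydroxylases (EGLN1, EGLN2 and EGLN3) modify the alpha subunit, VHL binds the modified protein and directs it to the proteasome, and HIF1AN blocks its contact with coactivators. When oxygen falls, the alpha subunit accumulates and raises the transcription of genes for glucose uptake, glycolysis, blood vessel growth, pH control and collagen modification, a programme well known from the poorly perfused centres of glioblastoma. Control of the alpha subunit acts largely on the protein, which was not measured here.

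RNA was sequenced after depletion of ribosomal RNA, and the libraries held between 29692065 and 46010369 counts on genes. Levels are given as CPM, counts put on a common scale by the size of each library, and the lowest level accepted as detected, 3 counts, came to 0.0673 to 0.0996 CPM, a floor that covers counting error only. PARP3 itself was measured at 34.9, 22.4 and 24.3 CPM in WT replicates 1, 2 and 3 and at 19.1, 22.5 and 19.5 CPM in PARP3-/- replicates 1, 2 and 3. These ranges overlapped, and the log2 fold change of -0.42 missed the threshold without a block for replicate number (adjusted p = 0.307 in edgeR's quasi-likelihood test). With the block it was -0.39 and passed in edgeR (adjusted p = 0.0469) but not in DESeq2 (adjusted p = 0.43). Genotypes are those given in the labels. Replicate 1 of both genotypes stood apart from the other libraries of its genotype. The chi-square per degree of freedom between libraries was 55.2 to 107 for pairs that included replicate 1 and 4.16 to 12.3 for pairs that did not. Deviations from the genotype means correlated positively between libraries of equal number, and also between replicates 2 and 3 across genotypes. Each fold change was also estimated with the replicate number as a block. Of glioma line markers, VIM, NES, CD44, FN1 and TNC were at 457 CPM or more in every library, whereas GFAP, the astrocyte filament gene, stayed under the filter on low counts. Of markers of other cell types, 3 of 10 with a row were tested, and the summed level of the 10 was 16.4 to 18.9 CPM in WT and 18.6 to 20.6 CPM in PARP3-/- libraries, most of it from SNAP25 and MBP. PTPRC, ITGAM, CDH5 and RBFOX3, which mark immune, myeloid, endothelial and neuronal cells, had at most 4 counts in any library. SNAP25, also a neuronal marker, and MBP, an oligodendrocyte marker, were detected. Of the 10, 3 had more than 3 counts in every library and 4 had more in none.

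Of the 42 genes, 40 had enough counts to be tested. HIF3A and LOX, the latter an enzyme that cross-links collagen, had at most 3 counts in any library and are given no fold change. In the test without the block, 2 of the 40 genes fell in PARP3-/- cells (CA12 and VHL) and 1 rose (ALDOC), at an adjusted p under 0.05 over all tested genes. That is 7.5% of the set, against 4.7% of the 17144 genes tested, of which 3.33% fell and 1.36% rose. With the replicate block, 6 fell (VHL, CA9, CA12, ADM, SLC2A3 and HK2) and 8 rose (HIF1A, ARNT, BNIP3L, PFKP, PFKFB3, PFKFB4, ALDOC and ENO1), or 35% of the set against 24.3% of all tested genes, of which 12.5% fell and 11.8% rose. At an unadjusted p under 0.05 in edgeR with the block, these shares were close, at 37.5% and 35.4%. The median standard error with the block was 0.058 for the set and 0.075 for all tested genes. With the block and without replicate 1, 7 fell and 9 rose, where 29.9% of all genes were called. Of the 14 genes called with the block, VHL, CA12, ADM, SLC2A3, HK2, ARNT and ALDOC kept the call when replicates 1, 2 and 3 were left out in turn. HIF1A, PFKP, PFKFB3 and PFKFB4 lost it without replicate 2 and without replicate 3, BNIP3L without replicate 2, and CA9 and ENO1 without replicate 3. CA9 was under the filter on low counts without replicate 2 and had no test there. In DESeq2, 3 fell and 2 rose without the block, where 5.93% of all genes were called, and 5 fell and 6 rose with it, where 12.5% were called. With stricter limits in edgeR, namely 0.001 for the adjusted p and 1 for the size of the log2 fold change, 0 of the 40 were called, against 0.478% of all tested genes. The median log2 fold change of the 40 genes was -0.003, close to the -0.006 of all tested genes. A log2 fold change within 0.25 of 0 was found for 30 of the 40. The levels of the genotypes did not overlap for 7 of the 40 genes (17.5%), against 22.8% of all tested genes, with 3 of the 7 lower in PARP3-/- cells (12% of all tested genes) and 4 higher (10.8%). Negative and positive log2 fold changes were about equally frequent, at 21 and 19 genes.

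**Figure D1:**
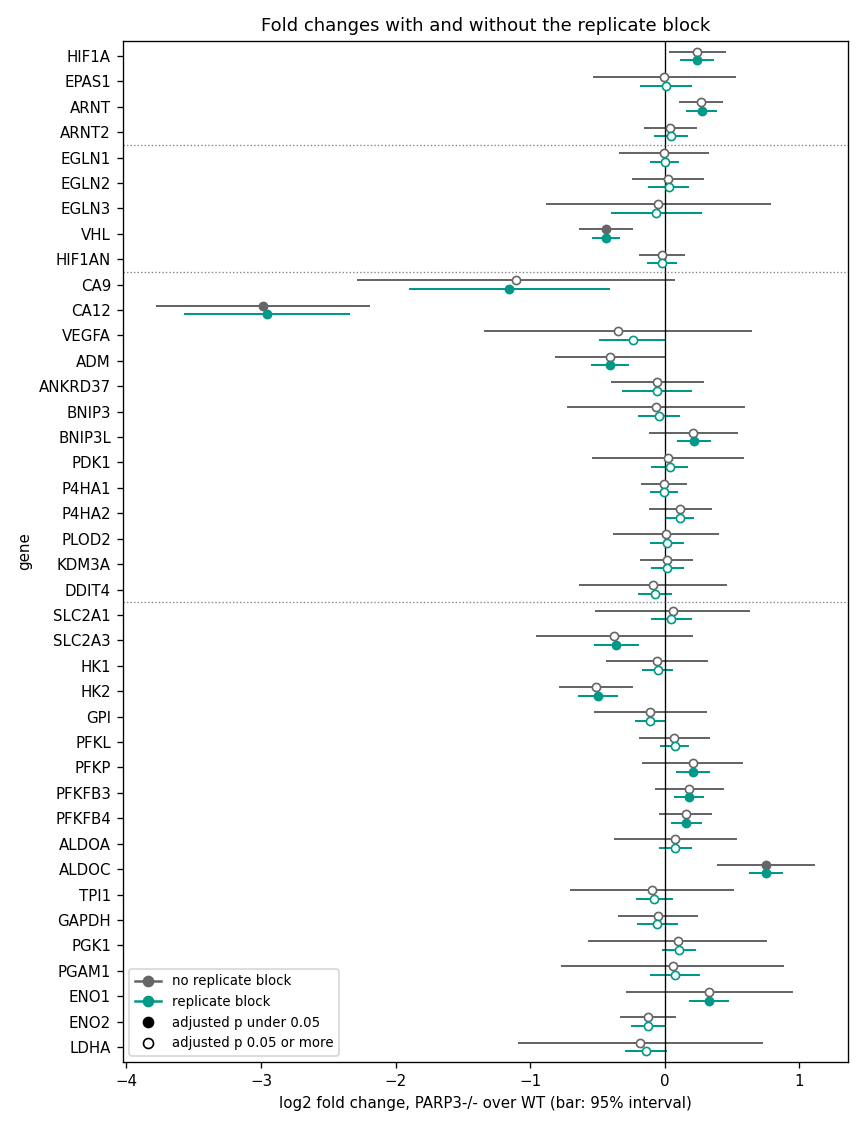
Log2 fold change of PARP3-/- over WT cells (x axis) for the 40 tested genes (y axis), grouped by role, in edgeR without the replicate block (grey) and with it (green). Points are estimates, bars are 95% intervals and filled points have an adjusted p under 0.05. CA12 stands far to the left at -2.99, ALDOC stands furthest to the right at 0.75, and the intervals with the block are narrower for most genes.

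HIF binds short DNA elements with the core ACGTG or GCGTG. RefSeq promoter windows at the annotated start of each gene (GRCh38.p14) were read to show what these genes carry there. Shares count matches anywhere in a window, which was not cut to the 250 bases before the start that are printed below. A window was found for 37 of the 42 genes, all but BNIP3L, VHL, ARNT2, VEGFA and SLC2A3. On either strand, ACGTG or GCGTG occurred in 32 of the 37 windows (86.5%), against 52.4% of 27305 genes with a window and 69.6% of the tested genes with a window. ACGTG alone occurred in 21 of the 37 (56.8%), against 24.9% of all windows and 32.3% of those of tested genes. The longer TACGTG, which contains ACGTG, occurred in 12 of the 37 (32.4%), against 3.98% of all windows and 4.51% of those of tested genes. These 12 were 7 of 12 HIF targets (ANKRD37, CA9, DDIT4, LOX, P4HA1, PDK1 and PLOD2), 4 of 17 glycolytic genes (ALDOC, ENO2, PFKP and TPI1) and EGLN1, while 0 of 4 HIF subunits held it. The palindrome CACGTG, which also contains ACGTG and is the core of other helix-loop-helix factors as well, occurred in 9 of the 37 (24.3%), against 8.77% of all windows and 12.5% of those of tested genes. A match is a description of the letters and not a shown site of binding. For 5 genes whose levels stand out below, the 250 bases before the start are printed 5′ to 3′ on the strand of the gene. Every ACGTG and GCGTG, on either strand, is in capitals.
CA12, which fell most, chr15:63381847-63382096, minus strand: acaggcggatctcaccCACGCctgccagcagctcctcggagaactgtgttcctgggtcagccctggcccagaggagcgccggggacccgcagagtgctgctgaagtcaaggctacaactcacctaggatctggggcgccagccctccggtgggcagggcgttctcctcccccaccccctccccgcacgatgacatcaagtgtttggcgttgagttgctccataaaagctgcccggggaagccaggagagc
CA9, its relative near the limit of detection, chr9:35673678-35673927, plus strand: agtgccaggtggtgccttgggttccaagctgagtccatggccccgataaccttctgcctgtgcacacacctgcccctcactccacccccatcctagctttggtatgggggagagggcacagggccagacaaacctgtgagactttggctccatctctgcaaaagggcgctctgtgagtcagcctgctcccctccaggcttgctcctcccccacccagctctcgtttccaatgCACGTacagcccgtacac
ALDOC, the gene that rose most, chr17:28576896-28577145, minus strand: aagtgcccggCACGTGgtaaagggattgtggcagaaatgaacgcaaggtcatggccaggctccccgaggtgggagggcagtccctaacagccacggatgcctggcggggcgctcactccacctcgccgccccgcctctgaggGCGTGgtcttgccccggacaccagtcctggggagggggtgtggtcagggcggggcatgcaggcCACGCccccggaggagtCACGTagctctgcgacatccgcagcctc
PGK1, low in replicate 1, chrX:78103998-78104247, plus strand: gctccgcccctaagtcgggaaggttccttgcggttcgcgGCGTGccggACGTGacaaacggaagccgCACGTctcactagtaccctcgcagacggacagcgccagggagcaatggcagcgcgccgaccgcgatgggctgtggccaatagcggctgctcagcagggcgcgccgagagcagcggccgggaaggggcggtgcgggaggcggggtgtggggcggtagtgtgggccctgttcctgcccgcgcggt
DDIT4, high in replicate 1, chr10:72273674-72273923, plus strand: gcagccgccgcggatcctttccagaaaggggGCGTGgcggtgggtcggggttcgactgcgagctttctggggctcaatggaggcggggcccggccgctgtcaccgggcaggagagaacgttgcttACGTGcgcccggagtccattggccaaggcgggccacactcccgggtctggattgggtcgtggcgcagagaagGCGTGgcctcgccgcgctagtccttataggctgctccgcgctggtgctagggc
The printed bases of CA12 held 1 GCGTG and no ACGTG, whereas those of CA9 held 1 ACGTG, 18 bases before the start, as part of TACGTG. Those of ALDOC held 5 matches, of which 2 belong to the palindrome CACGTG on its opposite strands.

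Among the HIF subunits, HIF1A was by far the most abundant alpha subunit and was somewhat higher in PARP3-/- cells, whereas EPAS1 did not separate the genotypes. HIF1A (ENSG00000100644, chromosome 14 from 61695513 to 61748259) was measured at 665, 712 and 668 CPM in WT replicates 1, 2 and 3 and at 758, 822 and 839 CPM in PARP3-/- replicates 1, 2 and 3. Every PARP3-/- library exceeded every WT library. The log2 fold change of 0.24 (standard error 0.09) missed the threshold without the block (adjusted p = 0.24 in edgeR) and passed it with the block (adjusted p = 0.0114). EPAS1, which encodes HIF-2 alpha, was measured at 12.5, 7.98 and 8.44 CPM in WT and at 12.0, 8.89 and 8.02 CPM in PARP3-/- libraries. Replicate 1 was the highest in both genotypes, and the genotypes overlapped throughout. Its log2 fold change was -0.00, with a 95% interval from -0.53 to 0.53, and with the block it was 0.01 (standard error 0.09, adjusted p = 0.963 in edgeR), with an interval from -0.18 to 0.20. A change of the size seen in HIF1A lies within the first interval and outside the second. Per kilobase of exon, HIF1A stood at 132 ± 5.17 CPM in WT (SD, n = 3) and EPAS1 at 1.32 ± 0.340 CPM (SD, n = 3).

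ARNT, a beta subunit that pairs with the alpha subunits, was measured at 54.5, 53.6 and 58.4 CPM in WT and at 67.2, 67.2 and 66.6 CPM in PARP3-/- libraries. The PARP3-/- libraries were nearly equal and all lay above the WT libraries. A log2 fold change of 0.27 (standard error 0.07) missed the threshold without the block (adjusted p = 0.0878 in edgeR) and passed it with the block (adjusted p = 0.00296). Within 5 Mb of ARNT, 129 of 187 tested genes had a positive log2 fold change, with a median of 0.11. ARNT2, the neuronal form of the beta subunit, was measured at 76.0, 65.2 and 75.0 CPM in WT and at 75.0, 74.4 and 73.0 CPM in PARP3-/- libraries, with no separation (log2 fold change 0.04, 95% interval -0.15 to 0.24). ARNT2 accordingly made up 56.4% ± 1.69 (SD, n = 3) of the summed counts of ARNT2 and ARNT in WT and 52.5% ± 0.239 (SD, n = 3) in PARP3-/- cells.

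**Figure D2:**
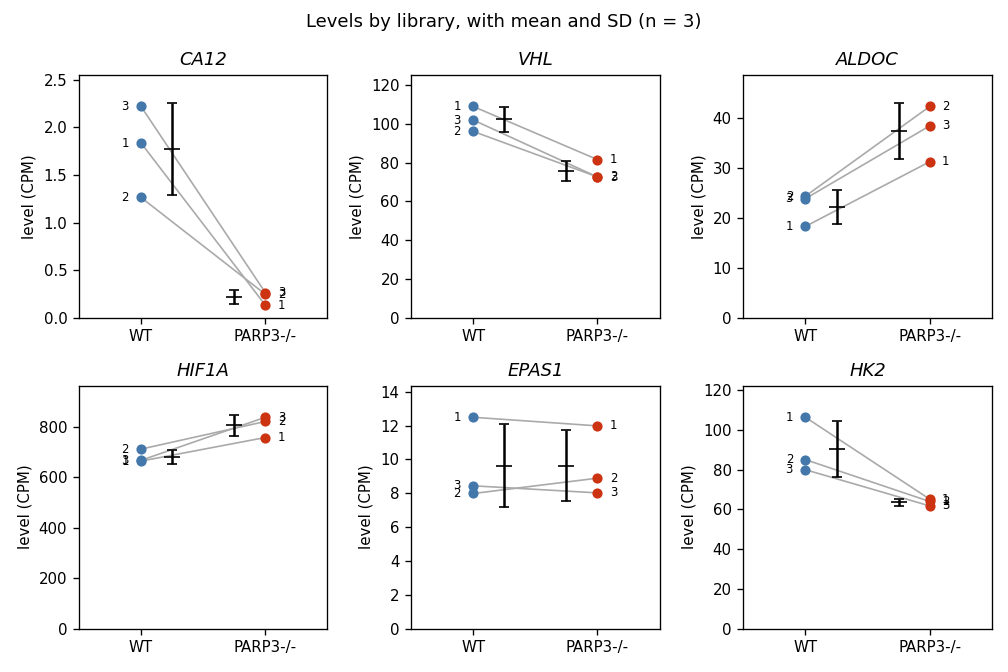
Level in CPM (y axis, from 0) of 6 genes in WT (blue) and PARP3-/- (red) libraries, with grey lines joining libraries of the same replicate number and black bars for the mean and SD (n = 3). CA12, VHL and HK2 are lower and ALDOC and HIF1A higher in all 3 PARP3-/- libraries, while EPAS1 is highest in replicate 1 of both genotypes, at 12.5 and 12.0 CPM.

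Of the 5 oxygen sensors and HIF regulators, VHL alone fell, and the 3 prolyl hydroxylases and HIF1AN did not separate the genotypes. VHL (ENSG00000134086, chromosome 3 from 10141008 to 10152220) was measured at 109, 96.2 and 102 CPM in WT and at 81.6, 72.7 and 72.6 CPM in PARP3-/- libraries. All PARP3-/- libraries lay below all WT libraries, a log2 fold change of -0.44 (standard error 0.09, adjusted p = 0.0369 in edgeR) or 1.35-fold lower. The genes around it were lower too. Within 5 Mb of VHL, 58 of 65 tested genes had a negative log2 fold change, with a median of -0.26, and the part of the surrounding region in the VHL difference was not tested. The VHL estimate lay between -0.49 and -0.39 with 1 library left out, and the call was kept without PARP3-/- replicate 1 and lost without any of the other 5 libraries, with adjusted p up to 0.191. It was also lost under upper-quartile scaling (adjusted p = 0.0591 in edgeR) and with a mean count of at least 50 (adjusted p = 0.0524). The VHL call was kept with the block in edgeR (adjusted p = 9.34e-05). In DESeq2 it was kept without the block (adjusted p = 0.00121) and with it (adjusted p = 6.83e-08). EGLN1, the main prolyl hydroxylase, was measured at 104, 140 and 133 CPM in WT and at 108, 134 and 134 CPM in PARP3-/- libraries, a log2 fold change of -0.00 (95% interval -0.34 to 0.33). EGLN2 ranged from 16.8 to 20.9 CPM over the 6 libraries and HIF1AN from 66.0 to 73.0 CPM. EGLN3, the prolyl hydroxylase that is itself a strong HIF target, was low, at 1.48, 2.88 and 2.39 CPM in WT and 1.23, 2.58 and 2.67 CPM in PARP3-/- libraries. Its interval was wide, from -0.89 to 0.79 on the log2 scale.

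Among the 14 HIF targets, the largest difference was in CA12, and most of the others, among them targets for collagen modification and metabolism, did not pass the test. CA12 (ENSG00000074410, chromosome 15 from 63321378 to 63382161), a membrane carbonic anhydrase that acidifies the space outside the cell, had 67, 53 and 91 counts in WT and 4, 11 and 10 counts in the PARP3-/- libraries. Its levels were 1.83, 1.26 and 2.22 CPM in WT and 0.133, 0.247 and 0.265 CPM in PARP3-/- libraries. The lowest WT library thus lay well above the highest PARP3-/- library, although the gene was weakly expressed even in WT cells. CA12 was 7.94-fold lower in PARP3-/- cells (log2 fold change -2.99, standard error 0.34, adjusted p = 0.00401 in edgeR). Its neighbours within 5 Mb did not share the direction, as 19 of 83 had a negative log2 fold change and their median was 0.13. CA9, the second membrane carbonic anhydrase and a widely used marker of hypoxic tumour cells, was counted 9, 31 and 22 times in WT and 5, 16 and 6 times in PARP3-/- libraries. The ranges overlapped, and each same-numbered PARP3-/- library lay below its WT counterpart. The log2 fold change of -1.11 (standard error 0.50) missed the threshold without the block (adjusted p = 0.34 in edgeR) and passed it with the block (adjusted p = 0.0296), but not in DESeq2 with the block (adjusted p = 0.385).

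ADM, which encodes the vasodilator peptide adrenomedullin, was measured at 28.8, 39.9 and 38.8 CPM in WT and at 22.0, 27.6 and 31.6 CPM in PARP3-/- libraries. The ranges overlapped because replicate 1 was the lowest in both genotypes, and every PARP3-/- library lay below the WT library of the same number. Its log2 fold change of -0.40 (standard error 0.17) missed the threshold without the block (adjusted p = 0.311 in edgeR), and that of -0.41 with the block (standard error 0.06) passed it (adjusted p = 0.00085). BNIP3L, a receptor for the removal of mitochondria, was measured at 89.7, 123 and 116 CPM in WT and at 115, 142 and 124 CPM in PARP3-/- libraries, a log2 fold change of 0.21 that passed with the block alone (adjusted p = 0.0193 in edgeR). Its relative BNIP3 was measured at 37.9, 76.3 and 58.2 CPM in WT and at 39.5, 63.3 and 62.0 CPM in PARP3-/- libraries, which did not separate.

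VEGFA, the main angiogenic factor of glioblastoma, was measured at 162, 64.6 and 57.7 CPM in WT and at 101, 58.7 and 62.8 CPM in PARP3-/- libraries. Replicate 1 was the highest in both genotypes, and the log2 fold change of -0.35 had an interval from -1.34 to 0.65. With the block it was -0.24 (adjusted p = 0.162 in edgeR). With the block kept, it was -0.01 without replicate 1 (adjusted p = 0.914), -0.28 without replicate 2 (adjusted p = 0.222) and -0.41 without replicate 3, where it passed (adjusted p = 0.0185 in edgeR). DDIT4, an inhibitor of mTORC1 signalling, was likewise the highest in replicate 1, at 522, 326 and 324 CPM in WT and 457, 331 and 312 CPM in PARP3-/- libraries. PDK1, which restrains the entry of pyruvate into the citric acid cycle, ranged from 32.9 to 58.5 CPM in WT and from 34.5 to 53.7 CPM in PARP3-/- libraries. P4HA1, a collagen prolyl hydroxylase, varied little, at 128, 136 and 133 CPM in WT and 126, 137 and 133 CPM in PARP3-/- libraries (95% interval of the log2 fold change -0.18 to 0.17). P4HA2 had a log2 fold change of 0.12, the collagen lysyl hydroxylase PLOD2 of 0.01, the histone demethylase KDM3A of 0.02 and ANKRD37, a small ankyrin repeat protein, of -0.05, and all 4 missed the threshold in both models.

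The glycolytic genes made up 1.03% to 1.40% of all counts in WT and 1.04% to 1.42% in PARP3-/- libraries, ranges that overlapped almost entirely. Per kilobase of exon, GAPDH was the highest of the 42 genes, at 2052 ± 120 CPM in WT and 1978 ± 158 CPM in PARP3-/- cells (SD, n = 3), followed by ENO1 at 509 ± 129 and 641 ± 170 CPM (SD, n = 3). Of the 18 genes, 0 fell and 1 rose without the block in edgeR, where 1 fell and 1 rose at an unadjusted p under 0.05 and likewise in DESeq2 after adjustment. With the block 2 fell and 5 rose. These calls came to 5.56% of the 18 without the block, against 4.7% of all tested genes, and to 38.9% with it, against 24.3%.

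ALDOC, the brain isozyme of aldolase, which splits fructose 1,6-bisphosphate, rose most. ALDOC (ENSG00000109107, chromosome 17 from 28573115 to 28577264) was measured at 18.3, 24.4 and 23.9 CPM in WT and at 31.3, 42.4 and 38.5 CPM in PARP3-/- libraries. All PARP3-/- libraries lay above all WT libraries, a log2 fold change of 0.75 (standard error 0.15, adjusted p = 0.0418 in edgeR) or 1.68-fold higher. Leaving out 1 library at a time kept the estimate between 0.63 and 0.87, and the call was lost without WT replicate 2, WT replicate 3, PARP3-/- replicate 2 or PARP3-/- replicate 3, with adjusted p up to 0.168. With the block the adjusted p was 6.54e-06. Within 5 Mb of ALDOC, 62 of 85 tested genes had a positive log2 fold change, with a median of 0.14. Its ubiquitous counterpart ALDOA was measured at 759, 1126 and 983 CPM in WT and at 798, 1169 and 1062 CPM in PARP3-/- libraries, a log2 fold change of 0.08 with an interval from -0.38 to 0.54. ALDOC thus supplied 2.28% ± 0.141 of the aldolase A and C counts in WT and 3.59% ± 0.160 in PARP3-/- cells (SD, n = 3), and the ranges did not overlap.

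HK2, the inducible hexokinase that traps glucose in the cell, was measured at 106, 85.0 and 80.0 CPM in WT and at 65.1, 64.0 and 61.7 CPM in PARP3-/- libraries. All PARP3-/- libraries lay below all WT libraries and close together. The log2 fold change of -0.51 (standard error 0.12) missed the threshold without the block (adjusted p = 0.0611 in edgeR) and passed it with the block (adjusted p = 0.000331) and in DESeq2 (adjusted p = 0.00644). HK1, the housekeeping hexokinase, was measured at 163, 233 and 218 CPM in WT and at 167, 213 and 210 CPM in PARP3-/- libraries. HK2 accounted for 31.0% ± 7.33 of the counts of both hexokinases in WT and 24.6% ± 3.02 in PARP3-/- cells (SD, n = 3), ranges that overlapped through PARP3-/- replicate 1, although the share was lower in PARP3-/- cells for each replicate number.

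**Figure D3:**
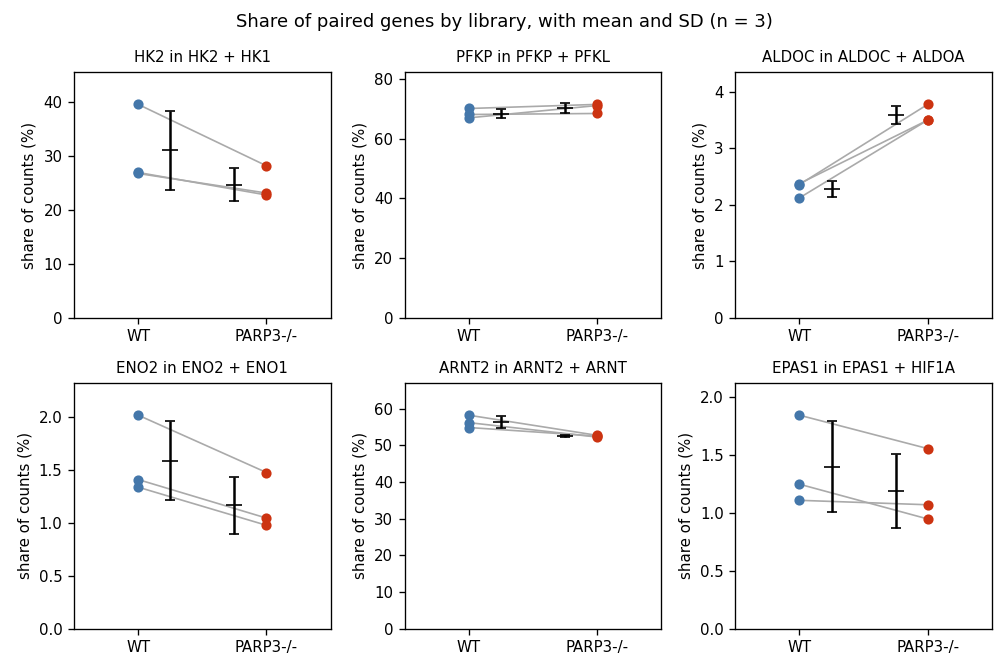
Share of the first-named gene in the summed counts of a gene pair (y axis, percent, from 0) in WT (blue) and PARP3-/- (red) libraries, with lines joining libraries of the same replicate number and bars for the mean and SD (n = 3). ALDOC rises from 2.28% to 3.59% and ARNT2 falls from 56.4% to 52.5% with no overlap, whereas the shares of HK2, PFKP, ENO2 and EPAS1 overlap between the genotypes, with HK2, ENO2 and EPAS1 lower and PFKP higher in PARP3-/- cells for each replicate number.

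ENO1, the ubiquitous enolase, was measured at 1944, 3284 and 2735 CPM in WT and at 2345, 4036 and 3643 CPM in PARP3-/- libraries. The genotypes overlapped, yet each PARP3-/- library exceeded the WT library of the same number. The log2 fold change of 0.33 (standard error 0.26, adjusted p = 0.646 in edgeR) became 0.33 with a standard error of 0.07 and an adjusted p of 0.00487 with the block. Its neuronal form ENO2 ranged from 39.0 to 44.4 CPM in WT and from 35.1 to 39.8 CPM in PARP3-/- libraries, with a log2 fold change of -0.12 that missed the threshold in both models.

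PFKP, the platelet form of phosphofructokinase, was measured at 276, 372 and 313 CPM in WT and at 303, 414 and 393 CPM in PARP3-/- libraries. Its log2 fold change was 0.21, with an adjusted p of 0.63 without and 0.0232 with the block in edgeR. PFKFB3 and PFKFB4, which make the activator fructose 2,6-bisphosphate, had log2 fold changes of 0.18 and 0.16 and passed with the block alone, at adjusted p of 0.0259 and 0.0451 in edgeR, but not in DESeq2 with the block (adjusted p = 0.0719 and 0.17). PFKFB4 lay between 57.3 and 67.0 CPM in WT and between 68.1 and 72.3 CPM in PARP3-/- libraries, without overlap, in a region where 158 of 171 neighbours within 5 Mb had a negative log2 fold change. PFKL, the liver form of phosphofructokinase, had a log2 fold change of 0.07 and did not pass in either model.

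The glucose transporters differed between themselves. SLC2A3, the high-affinity neuronal transporter, was measured at 21.0, 12.3 and 13.5 CPM in WT and at 15.3, 10.2 and 10.6 CPM in PARP3-/- libraries, a log2 fold change of -0.38 that passed with the block alone (adjusted p = 0.551 without and 0.00542 with it, in edgeR). Without WT replicate 1, its highest library, the value without the block was -0.11. Replicate 1 was the highest in PARP3-/- cells too. With the block and without replicate 1 of both genotypes, the value was -0.31 (adjusted p = 0.00662 in edgeR). Within 5 Mb of SLC2A3, 95 of 118 tested genes had a negative log2 fold change, with a median of -0.23, and the part of the region was not tested. SLC2A1, the ubiquitous transporter, was measured at 197, 310 and 228 CPM in WT and at 179, 316 and 271 CPM in PARP3-/- libraries and did not separate. The other glycolytic genes, GPI, TPI1, GAPDH, PGK1, PGAM1 and LDHA, had log2 fold changes between -0.18 for LDHA and 0.09 for PGK1 without the block, and none passed in either model. With the block and without replicate 1, LDHA (-0.24, adjusted p = 0.000508 in edgeR) and SLC2A1 (0.13, adjusted p = 0.0453) passed as well. Of the members, 11 have pseudogenes with rows of their own in the table, 75 rows in all, 45 of them for GAPDH. Their counts added up to 7.07% of those of PGAM1 and at most 1.03% of those of any other member, and how many reads were split between near-identical copies was not tested.

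For many glycolytic genes the replicates of a genotype differed more than the genotypes did. LDHA, which converts pyruvate to lactate, was measured at 506, 1276 and 1105 CPM in WT and at 525, 1065 and 957 CPM in PARP3-/- libraries. In both genotypes replicate 1 was under the other replicates, a difference of -1.23 in WT and -0.94 in PARP3-/- cells on the log2 scale against the mean of replicates 2 and 3. PGK1, the first enzyme of glycolysis to yield ATP, was measured at 463, 875 and 733 CPM in WT and at 517, 893 and 802 CPM in PARP3-/- libraries. Replicate 1 was the lowest library in both genotypes for 26 of the 40 genes (65%), against 32.3% of all tested genes, and the highest in both for 10 (25%), against 32.5%. Among the glycolytic genes it was the lowest in both for 14 of 18, and among the HIF targets for 9 of 13.

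The exceptions included 2 of the 13 tested HIF targets, VEGFA and DDIT4. VEGFA was higher in replicate 1 by 1.40 in WT and 0.74 in PARP3-/- cells, and DDIT4 by 0.68 and 0.51, on the log2 scale. SLC2A3, listed with glucose uptake, was higher there by 0.70 and 0.55, and EPAS1, a HIF subunit, by 0.60 and 0.50. EGLN3, an oxygen sensor that is also a HIF target, was lower in replicate 1 by 0.81 in WT and by 1.07 in PARP3-/- cells. Known HIF targets thus differed in direction between replicate 1 and the other replicates.

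**Figure D4:**
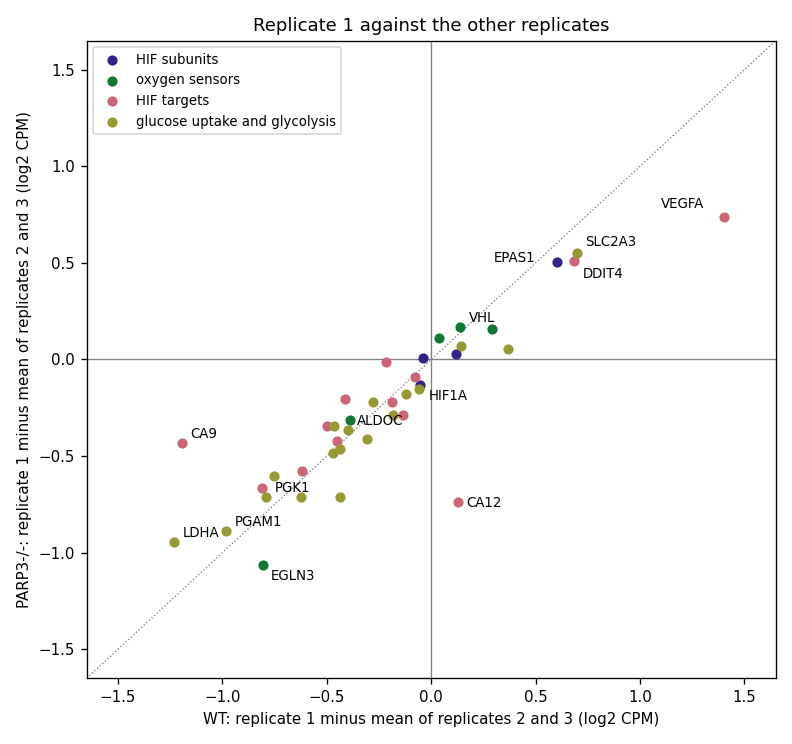
Difference of replicate 1 from the mean of replicates 2 and 3 on the log2 CPM scale, in WT (x axis) and in PARP3-/- cells (y axis), for the 40 tested genes coloured by role, with a dotted line where both are equal. Most genes lie near that line. LDHA and PGAM1 lie at its lower end, at -1.23 and -0.98 in WT, VEGFA lies at its upper end, at 1.40 in WT, and CA12 and CA9 lie off it.

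Stress and growth genes moved with replicate 1 as well. Of 10 genes of the stress response, 8 were the highest in replicate 1 of both genotypes, among them DDIT3 at 208, 24.3 and 25.9 CPM in WT and 192, 23.2 and 28.3 CPM in PARP3-/- libraries. All 10 proliferation genes, such as PCNA at 175, 499 and 417 CPM in WT and 196, 428 and 410 CPM in PARP3-/- libraries, were the lowest there. Their part in the replicate difference of the glycolytic genes was not tested. Between genotypes, with all 6 libraries, 0 of the 10 stress genes passed in either model of edgeR or DESeq2, with 0 at an unadjusted p under 0.05 in edgeR without the block and 2 with it. Of the proliferation genes MCM2 passed, with the block (log2 fold change 0.19). With the block and without replicate 1, 3 of the 10 stress genes were higher in PARP3-/- cells (CHAC1, SESN2 and TRIB3), and of the 10 proliferation genes 7 were lower, by 0.17 to 0.32 on the log2 scale, and MCM2 was higher, where 29.9% of all genes were called. Their part in the genotype differences under that setting was not tested.

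**Figure D5:**
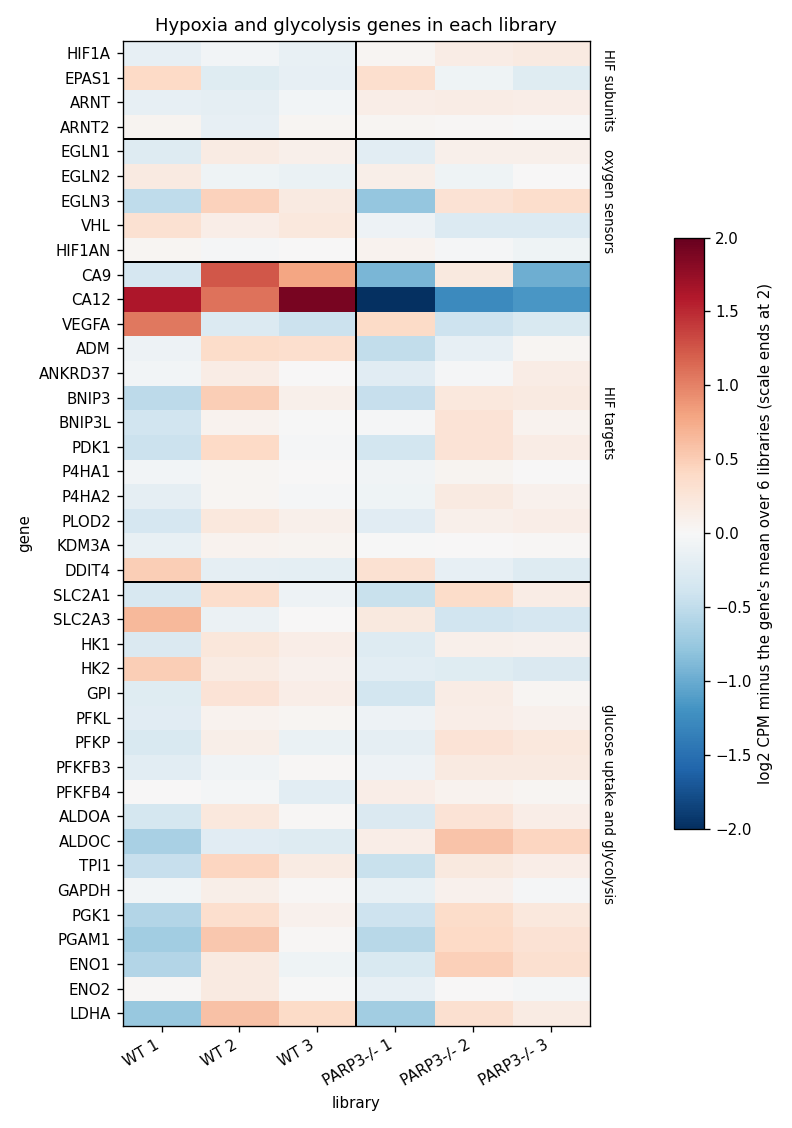
Log2 CPM of each tested gene in each library minus the mean of that gene over the 6 libraries (colour, red above and blue below the mean, with the scale ending at 2), with genes in rows by role and libraries in columns. The column of replicate 1 is blue for most glycolytic genes in both genotypes, and the CA12 row changes from red in WT to blue in PARP3-/- libraries.

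Wider lists of the same pathways, also compiled by function, were read beside these genes. Of 37 other HIF targets tested, 1 fell without the block, and 6 fell and 9 rose with it, or 40.5% against 24.3% of all tested genes. RORA, a nuclear receptor, was counted 42, 20 and 35 times in WT and 4, 0 and 3 times in PARP3-/- libraries (log2 fold change -3.63, adjusted p = 0.0334 in edgeR). The size of the RORA fold change is uncertain, since its PARP3-/- counts lay at or near the floor of 3. SLC16A3, the lactate exporter induced by hypoxia, had the smallest p with the block, at 49.6, 92.9 and 71.4 CPM in WT and 76.7, 151 and 134 CPM in PARP3-/- libraries (log2 fold change 0.75, adjusted p = 8.36e-06 in edgeR). The others of smallest p that rose with the block were FLT1, a VEGF receptor, at a log2 fold change of 0.37, BHLHE41, a transcriptional repressor, at 0.61, NARF at 0.27 and JMJD6 at 0.25. IGFBP3 (-0.69), NDRG1 (-0.45), BHLHE40 (-0.26) and INSIG2 (-0.23) fell with the block.

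Of 24 other glycolysis and lactate genes tested, 0 passed without the block in edgeR, where 5 had an unadjusted p under 0.05, and 1 passed in DESeq2, while 7 fell and 7 rose with it, or 58.3% against 24.3%. PKM, pyruvate kinase, was measured at 1775, 2745 and 2440 CPM in WT and 2178, 3327 and 3060 CPM in PARP3-/- libraries (0.30 with the block, adjusted p = 0.0058). GPD1L, which draws dihydroxyacetone phosphate out of glycolysis, fell with the block (-0.43, adjusted p = 0.000159), as did TIGAR (-0.33), a phosphatase of fructose 2,6-bisphosphate, while the pyruvate carrier subunits parted, MPC2 higher (0.30) and MPC1 lower (-0.29). Of 18 genes for HIF degradation and coactivators, CITED1, a protein that binds the coactivators CREBBP and EP300, rose in both models, from 23.8, 18.1 and 21.1 CPM in WT to 41.3, 57.2 and 47.5 CPM in PARP3-/- libraries (log2 fold change 1.21, standard error 0.15, adjusted p = 0.00591 in edgeR). HSP90AA1, a chaperone of HIF1A, rose with the block alone (0.22, adjusted p = 0.0335), and ELOB, ELOC, CUL2 and RBX1, the partners of VHL in its ubiquitin ligase, did not pass in either model.

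Beside EPAS1 the study followed further hypoxia-responsive genes by other methods, and since it chose them with these cells in view their direction here is not independent evidence. NDRG2 was measured at 5.23, 6.08 and 7.29 CPM in WT and at 2.72, 2.87 and 2.38 CPM in PARP3-/- libraries (log2 fold change -1.22, standard error 0.17, adjusted p = 0.00954 in edgeR). NDRG1 had a log2 fold change of -0.47 without and -0.45 with the block, where it passed (adjusted p = 0.000842). NDRG4 (-0.10) did not pass in either model, and RUNX3 had at most 2 counts in any library and is given no fold change.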

How the data were processed

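RNA of 3 WT and 3 PARP3-/- LN229 libraries was analysed. According to the study's methods, total RNA was depleted of ribosomal RNA and made into stranded libraries, whereas the labels name polyA RNA. The deposited values used here are raw counts of 1 table. The authors made these counts with bcl2fastq 2.17.1.14, cutadapt 1.10, Bowtie2 2.2.8 (removal of ribosomal and spike-in reads), STAR 2.5.3a on hg38 and HTSeq 0.6.1p1 in union mode on Ensembl genes. The strand setting of the counting is not given in the sources used here. A further 12 columns of other values per sample were not used, nor were the columns with the authors' own comparison made with DESeq2 1.16.1 (log2 ratio, p-value and adjusted p-value).

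Counts were tested in R 4.3.3 with edgeR 4.0.16 (quasi-likelihood, TMM, filterByExpr with a minimum count of 10), Benjamini-Hochberg adjustment over all 17144 tested genes and a threshold of 0.05. Libraries held 29692065 to 46010369 counts. A fit with the replicate number of the labels as a block was also made. The deviations of same-numbered libraries from their genotype means correlated across genes at 0.676, 0.517 and 0.242 for replicates 1, 2 and 3. Those of WT replicate 2 and PARP3-/- replicate 3 correlated at 0.41, and those of WT replicate 3 and PARP3-/- replicate 2 at 0.264. These values set replicate 1 apart in both genotypes, but do not show that replicates 2 and 3 are paired by number. Nothing in the labels says that replicates were separate cultures, so p-values measure the spread between these samples. Intervals are 95%. Lengths for CPM per kilobase are exon unions of GENCODE 44. Alternatives were DESeq2 1.42.0, other scalings, other filters, a stricter threshold and each library left out, and, added after seeing the data, the block without each pair. The members and the lists, the windows of 5 Mb and the 250 printed bases were chosen with earlier results of these data known. Every member is accounted for. Beyond them, the genes named are PARP3, those the study chose, and from each further list at most the 5 of smallest p per direction that passed. Genes of the stress, proliferation and marker lists that are named as examples were chosen after their values were seen.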

Additional observations from a re-analysis of the deposited data

How the results depend on the processing

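With the replicate block in edgeR the genes called lower and higher numbered 2143 and 2023 of all genes and 6 and 8 of the 40 members, and in DESeq2 with the block 1342 and 1240 and 5 and 6. Without the block, DESeq2 called 871 and 475 genes and 3 and 2 members. A mean count of at least 50 left 331 lower genes and 0 lower members, upper-quartile scaling left 1 lower member, and an adjusted p under 0.001 with a log2 fold change beyond 1 left 76 and 6 genes and 0 members in either direction. At an unadjusted p under 0.05, 3 members were lower and 3 higher without the block in edgeR (15% of members, against 16.3% of all tested genes). With the mean count of at least 50 CA12 was filtered out and VHL missed the threshold. With 1 library left out, the counts ran from 281 to 606 and from 49 to 259 for all genes, and from 1 to 2 and from 0 to 1 for members. The block without replicates 1, 2 and 3 in turn gave 2649, 1357 and 1420 lower genes, 2501, 1122 and 1175 higher genes, 7, 5 and 6 lower members and 9, 3 and 3 higher members. The CA12 call was kept in each setting in which the gene was tested, apart from the stricter threshold. The cause of these differences was not tested.

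Sign changes were found for 24 members, none of which passed the threshold in the setting concerned. Their log2 fold changes with 1 library left out ran as follows, EPAS1 (-0.18 to 0.23), ARNT2 (-0.031 to 0.079), EGLN1 (-0.12 to 0.093), EGLN2 (-0.034 to 0.13), EGLN3 (-0.27 to 0.22), HIF1AN (-0.057 to 0.014), VEGFA (-0.64 to 0.28), ANKRD37 (-0.15 to 0.034), BNIP3 (-0.29 to 0.19), PDK1 (-0.16 to 0.25), P4HA1 (-0.032 to 0.026), PLOD2 (-0.14 to 0.12), KDM3A (-0.054 to 0.050), DDIT4 (-0.28 to 0.18), SLC2A1 (-0.12 to 0.26), HK1 (-0.20 to 0.049), GPI (-0.24 to 0.031), PFKL (-0.016 to 0.14), ALDOA (-0.064 to 0.22), TPI1 (-0.31 to 0.10), GAPDH (-0.11 to 0.0053), PGK1 (-0.13 to 0.30), PGAM1 (-0.20 to 0.39), LDHA (-0.49 to 0.072). The sign also changed under DESeq2 for EPAS1 (0.0050), EGLN1 (0.00011), under DESeq2 with the block for EPAS1 (0.013), EGLN1 (0.0047), under edgeR with the block for EPAS1 (0.0077), under median-of-ratios size factors for EPAS1 (0.0017) and with library totals alone for EGLN2 (-0.0021), PDK1 (-0.00018), PLOD2 (-0.019), KDM3A (-0.0098). With the block and without replicate 1 it changed for EPAS1 (0.042), PLOD2 (-0.037), KDM3A (-0.051), without replicate 2 for ARNT2 (-0.028), EGLN1 (0.032), ANKRD37 (0.0010), BNIP3 (0.076), TPI1 (0.0022), and without replicate 3 for EPAS1 (0.049), EGLN2 (-0.024), HIF1AN (0.019), PDK1 (-0.031), SLC2A1 (-0.052), PGAM1 (-0.014). Depth limited CA9, CA12, EGLN3, HIF3A and LOX most.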

Other observations

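Relatives of the HIF subunits in the helix-loop-helix PAS family were read as a further list of 12 tested genes, of which 1 fell and 0 rose without the block in edgeR (8.33%, against 4.7% of all tested genes) and 3 fell and 0 rose with it (25%, against 24.3%). At an unadjusted p under 0.05, 0 rose without the block and 1 with it, and in DESeq2 0 rose in either model. SIM2, a repressor that uses ARNT as its partner, was counted 10, 21 and 18 times in WT and 0, 1 and 0 times in PARP3-/- libraries, at least 4.93-fold lower against a limit of 3 counts in each library (adjusted p = 0.00852 in edgeR). AHR, the dioxin receptor, which also dimerises with ARNT, was measured at 99.0, 80.4 and 88.7 CPM in WT and at 86.2, 65.2 and 73.5 CPM in PARP3-/- libraries, a log2 fold change of -0.26 with the block (adjusted p = 0.00304). NPAS3 was measured at 6.27, 3.12 and 4.44 CPM in WT and at 4.05, 2.02 and 2.75 CPM in PARP3-/- libraries, a log2 fold change of -0.65 with the block (adjusted p = 0.00248).

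Of 9 tested glioma line markers, 1 fell without the block (11.1%, against 4.7% of all tested genes), and 5 fell and 1 rose with it (66.7%, against 24.3%). S100B, a glial calcium-binding protein, was measured at 234, 147 and 202 CPM in WT and at 105, 78.1 and 95.8 CPM in PARP3-/- libraries (log2 fold change -1.06, standard error 0.19, adjusted p = 0.0256 in edgeR), with no overlap. FN1, fibronectin, rose with the block (log2 fold change 0.63, adjusted p = 0.000203), while SPARC (-0.47), OLIG2 (-0.52), SOX2 (-0.32) and CD44 (-0.25) fell with it. Of the markers of other cell types, MBP, a myelin protein, rose with the block (log2 fold change 0.52, adjusted p = 0.0024).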
